A study of Mus musculus with 6 samples.

Results

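Trithorax and COMPASS proteins write methyl groups on lysine 4 of histone H3, and the abundance of their transcripts was examined in LSK cells, the lineage-negative, Sca-1-positive, c-Kit-positive fraction of bone marrow that holds blood stem and early progenitor cells. The 10 genes were chosen by name: the 6 catalytic subunits Kmt2a, Kmt2b, Kmt2c, Kmt2d, Setd1a and Setd1b, the cofactor Men1, the core subunits Ash2l and Wdr5, and the H3K27 demethylase Kdm6b. They are 10 of the 24063 gene symbols in the files, and all 10 passed the filter on low counts. No exon base of these genes is shared with another symbol. RNA came from 3 samples of Asxl2-/- genotype and 3 of wild-type genotype, numbered 1 to 3 within each group. Mice of both groups were C57BL/6, carried Mx1-Cre according to the sample titles and had received pIpC, a double-stranded RNA that switches on the interferon-responsive Mx1 promoter. Asxl2, a chromatin regulator of the Polycomb and trithorax class, was deleted through its exon 11 by that Cre. Because Mx1 answers to interferon, the deletion is not restricted to one blood cell type, and the injection itself reached both groups. The labels give neither the age nor the sex of the mice, nor the time after injection, nor whether animals were pooled. The study describes its RNA-seq samples as biological replicates.

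In each COMPASS complex a SET-domain enzyme sits on a shared core that includes WDR5, RBBP5, ASH2L and DPY30, without which the enzyme is weak. The trithorax branch, KMT2A and KMT2B with menin, acts at promoters and at developmental loci such as the Hox clusters, and KMT2A is the gene broken in MLL-rearranged leukaemia. The Trr branch, KMT2C and KMT2D with the H3K27 demethylase KDM6A, places monomethyl marks at enhancers, while SETD1A and SETD1B with CXXC1 and WDR82 supply most trimethylation at active promoters. KMT2A and menin are required to keep blood stem cells, through Hoxa9 and Meis1 among other targets. ASXL proteins act with BAP1, the enzyme that removes ubiquitin from histone H2A, and BAP1 complexes have been found with KMT2C and KMT2D at enhancers.

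The deposited files are of 2 kinds. Asxl2-/- replicates 1 and 3 and wild-type replicate 2 have 1 count per transcript, here called gene-count files. Asxl2-/- replicate 2 and wild-type replicates 1 and 3 have 1 count per exon, here called exon-count files, and a spliced read can enter their sums more than once. The totals of the counts over the symbols ran from 25528540 to 29136012 in the gene-count files and from 53147729 to 55032075 in the exon-count files, and the kind of file was a term in the fit. Asxl2 itself had a log2 fold change of 0.11 with an SE of 0.0954 (edgeR adjusted p = 0.469). Since only exon 11 is removed, this total does not check the genotype.

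Several features of the libraries moved with genotype. Xist, the transcript made from an inactive X chromosome, had 49540 to 66689 counts in the Asxl2-/- libraries and 590 to 3194 in the wild-type libraries. The Y-linked Uty, Kdm5d, Ddx3y and Eif2s3y reached no more than 2 counts in an Asxl2-/- library, against 1026 or more in each wild-type one. Genotype and sex therefore cannot be told apart here. The LSK-defining genes Kit, Ly6a (Sca-1), Flt3 and Cd34 were detected in every library. Kit, the c-Kit receptor, had 359 to 421 CPM (counts scaled to 1000000 of the normalised library size) in Asxl2-/- and 280 to 431 CPM in wild type. Sca-1 was uneven, at 40.5 to 260 CPM in wild type against 52.6 to 69.1 CPM in Asxl2-/-. Summed B-lymphoid markers reached 193 to 241 CPM in Asxl2-/- and 72.8 to 163 CPM in wild type, with 6 of 8 markers raised past the threshold. Of all genes tested, 2.34% passed that threshold in either direction. The megakaryocyte markers summed to 315 to 820 CPM and 158 to 352 CPM, with 4 of 7 raised, and the erythroid markers to 433 to 980 CPM and 1334 to 2278 CPM, with 0 of 7 past the threshold and 6 of 7 lower at an unadjusted p under 0.05, against 12.6% of all genes tested. The 8 markers of mature lineages that were measured summed to 74.4 to 102 CPM and 57.6 to 71.0 CPM, the 5 endothelial markers to 91.1 to 123 CPM and 75.0 to 100 CPM, and the 6 neural markers to 90.4 to 188 CPM and 130 to 170 CPM. The part of these differences in the results on the 10 genes was not tested, and in bulk RNA fewer cells of a type and less RNA per cell cannot be told apart.

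None of the 10 genes passed the threshold for a difference between Asxl2-/- and wild-type LSK cells. Counts were compared by edgeR's quasi-likelihood test with Benjamini-Hochberg adjustment over the 14145 genes tested, and 0 of 10 reached an adjusted p under 0.05, against 2.34% of all genes tested. DESeq2 and limma-voom with the same terms also called 0 of 10, against 17.1% and 3.04% of all genes they tested. When replicate numbers entered as blocks in addition to the kind of file, edgeR called 3 of 10, Kmt2a and Kmt2c raised and Setd1a lowered, but also 36.6% of all genes tested, from 1 residual degree of freedom. With the trend with GC content also removed it called 2 of 10 lowered, against 39.6%. At an unadjusted p under 0.05 the count was 1 of 10, Setd1a, against 27.7% of all genes tested. At a background of 2.34%, 0 of 10 lies near the share among all genes, and the count is no result about these genes in particular. Log2 fold changes (Asxl2-/- minus wild type throughout) were positive for 5 genes and negative for 5, from -0.26 for Setd1a to 0.30 for Kmt2c. The median of the 10 was 0.017, beside 0.0005 for all genes tested, and the median absolute log2 fold change was 0.14, beside 0.24. In 2 of the 10, Kmt2b and Setd1a, the groups lay apart in the same direction within both kinds of file, against 48.6% of all genes tested.

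**Figure D1:**
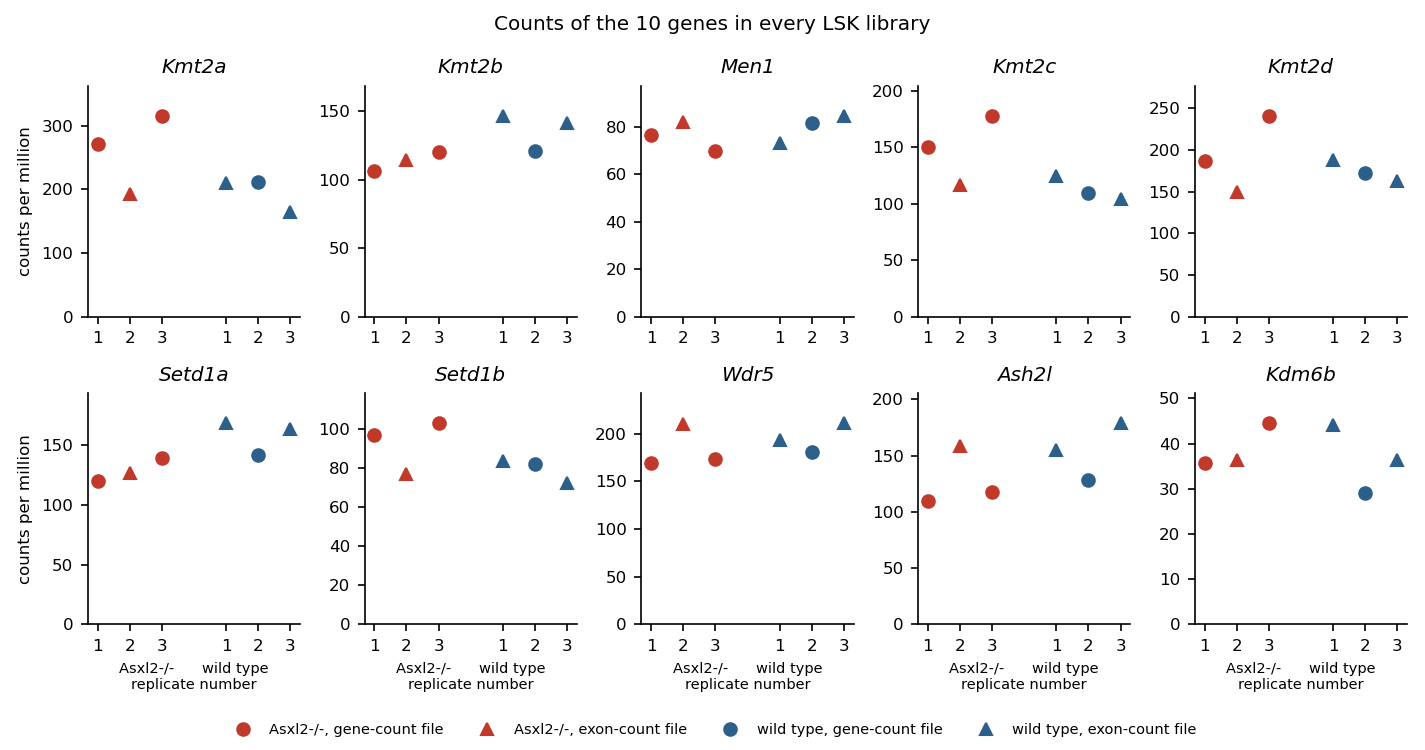
CPM of the 10 genes (y axis, from 0 in each panel) in each of the 6 libraries (x axis, replicate number within Asxl2-/- and wild type), with 1 point per library, circles for gene-count files and triangles for exon-count files. Points of the same shape are comparable, and in Kmt2b and Setd1a the Asxl2-/- points lie below the wild-type points of the same shape, while in Kmt2a and Kmt2c the difference stands in the circles.

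Kmt2a (NM_001081049), the trithorax enzyme whose amino-terminal portion is kept in MLL fusions, lies on chromosome 9, 44803355 to 44881274 of the mm10 build, minus strand, with 36 exons. It had 272, 192 and 315 CPM in Asxl2-/- replicates 1, 2 and 3 and 210, 211 and 165 CPM in wild-type replicates 1, 2 and 3. In the gene-count files both Asxl2-/- libraries were above the wild-type one, whereas in the exon-count files the Asxl2-/- library lay between the wild-type libraries. After the fitted effect of the kind of file was removed, adjusted means were 7.92 ± 0.16 log2 CPM in Asxl2-/- and 7.67 ± 0.21 in wild type (SD, n = 3). The log2 fold change was 0.25 with an SE of 0.157 and a 95% interval from -0.13 to 0.64 (edgeR adjusted p = 0.328). It was 0.47 among gene-count files and 0.04 among exon-count ones, so the interval leaves room both for no change and for a rise in Asxl2-/-.

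Kmt2b (NM_001290573), the paralog of Kmt2a, is on chromosome 7, 30568855 to 30588726, minus strand, with 37 exons. Its levels were 106, 115 and 120 CPM in Asxl2-/- and 146, 121 and 141 CPM in wild type. Every Asxl2-/- library was below every wild-type library, though the closest pair, Asxl2-/- replicate 3 and wild-type replicate 2, both gene-count files, nearly met. The adjusted means were 6.85 ± 0.11 log2 CPM in Asxl2-/- and 7.06 ± 0.07 in wild type (SD, n = 3), with a log2 fold change of -0.21 (SE 0.0978, interval -0.45 to 0.03, edgeR adjusted p = 0.218). Within the kinds of file it was -0.10 and -0.33. The 2 enzymes of the trithorax branch thus had estimates of opposite sign, and neither passed the threshold.

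Men1 (NM_008583) encodes menin, the adaptor through which KMT2A and KMT2B are brought to chromatin. It lies on chromosome 19, 6335039 to 6340894, plus strand, with 9 exons in the transcript used here. The Asxl2-/- libraries had 76.6, 81.9 and 69.9 CPM and the wild-type libraries 73.1, 81.4 and 84.5 CPM, so the groups overlapped in the exon-count files. Its log2 fold change of -0.05 (SE 0.102, interval -0.30 to 0.20) had an edgeR adjusted p of 0.795. All 4 Men1 transcripts listed had nearly the same counts.

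Kmt2c (NM_001081383) and Kmt2d (NM_001033276) encode the large enhancer-bound methyltransferases, and both are recurrently mutated in cancer. Kmt2c is on chromosome 5, 25271794 to 25498783, minus strand, with 59 exons, and Kmt2d on chromosome 15, 98831669 to 98871205, minus strand, with 55 exons. Kmt2c had 150, 116 and 178 CPM in Asxl2-/- replicates 1, 2 and 3 and 125, 110 and 104 CPM in wild-type replicates 1, 2 and 3. As with Kmt2a, both Asxl2-/- gene-count libraries stood above the wild-type one, and the Asxl2-/- exon-count library lay between the others. Its log2 fold change of 0.30 was the largest of the 10 in size (SE 0.164, interval -0.10 to 0.70, edgeR adjusted p = 0.277), with 0.57 among gene-count files and 0.03 among exon-count ones. Adjusted means were 7.15 ± 0.20 log2 CPM in Asxl2-/- and 6.85 ± 0.20 in wild type (SD, n = 3).

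For Kmt2d the values were 187, 150 and 241 CPM in Asxl2-/- and 188, 172 and 162 CPM in wild type. Here the kinds of file disagreed in direction, with a log2 fold change of 0.30 among gene-count files and -0.22 among exon-count ones. The combined estimate was 0.04 with an SE of 0.172, an interval from -0.38 to 0.46 and an edgeR adjusted p of 0.905. It was the second most uncertain of the 10 after Kdm6b.

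Setd1a (NM_178029), a promoter H3K4 methyltransferase required in blood progenitors, lies on chromosome 7, 127777389 to 127800119, plus strand, with 19 exons. It had 120, 127 and 140 CPM in Asxl2-/- replicates 1, 2 and 3 and 168, 142 and 164 CPM in wild-type replicates 1, 2 and 3. All Asxl2-/- libraries were below all wild-type libraries. The adjusted means were 7.02 ± 0.13 log2 CPM and 7.29 ± 0.08 (SD, n = 3). This was the lowest p of the 10, with a log2 fold change of -0.26, an SE of 0.106, an unadjusted p of 0.0482 and an edgeR adjusted p of 0.177. By p it ranked 3847 of 14145 genes. The log2 fold changes were -0.13 among gene-count files and -0.39 among exon-count ones.

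Setd1b (NM_001040398), its paralog, is on chromosome 5, 123142193 to 123168630, plus strand, with 17 exons. It showed 97.2, 76.9 and 103 CPM in Asxl2-/- against 83.5, 82.0 and 72.6 CPM in wild type. The groups overlapped in the exon-count files, and the log2 fold change was 0.13 (SE 0.111, interval -0.14 to 0.40, edgeR adjusted p = 0.469). As in the trithorax branch, the paralogs had estimates of opposite sign, and the difference between them was not tested.

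The core subunits had the smallest SEs of the 10. Wdr5 (NM_080848), the WD-repeat protein that holds the enzyme to the core, lies on chromosome 2, 27515147 to 27536538, plus strand, with 14 exons. It had 170, 210 and 173 CPM in Asxl2-/- and 193, 181 and 211 CPM in wild type, with the higher values in the exon-count files of both groups. Its log2 fold change was -0.01 (SE 0.0835, interval -0.21 to 0.20, edgeR adjusted p = 0.967), the narrowest interval of the 10. Ash2l (NM_011791), the subunit that with DPY30 stimulates the enzyme, is on chromosome 8, 25816001 to 25840787, minus strand, with 16 exons. Its libraries held 109, 159 and 118 CPM in Asxl2-/- and 155, 128 and 179 CPM in wild type, and the groups overlapped in the exon-count files. The log2 fold change was -0.12 (SE 0.0930, interval -0.35 to 0.10, edgeR adjusted p = 0.419).

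Kdm6b (NM_001017426), also called Jmjd3, encodes an inducible H3K27 demethylase that opposes Polycomb and is no H3K4 enzyme. It is on chromosome 11, 69398518 to 69413675, minus strand, with 23 exons. Levels were 35.8, 36.3 and 44.5 CPM in Asxl2-/- and 44.1, 29.0 and 36.4 CPM in wild type. In the gene-count files both Asxl2-/- libraries were above the wild-type one. In the exon-count files the Asxl2-/- library was below both wild-type libraries, though it nearly met wild-type replicate 3. The log2 fold change of 0.16 had the widest interval of the 10, from -0.30 to 0.61 (edgeR adjusted p = 0.618, SE 0.187), and was 0.46 among gene-count files and -0.14 among exon-count ones.

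**Figure D2:**
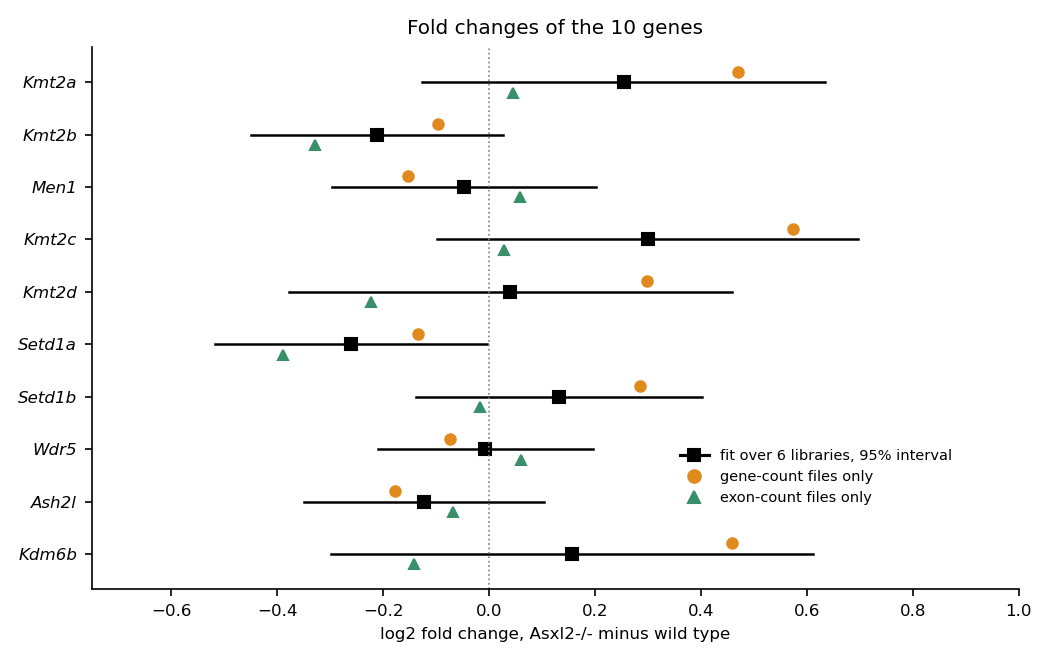
Log2 fold change (x axis, Asxl2-/- minus wild type) for each of the 10 genes (y axis). Black squares and lines are the edgeR estimate over 6 libraries with its 95% interval, orange circles the value within the gene-count files and green triangles that within the exon-count files, both without a test. The intervals span 0 for 9 genes, and that of Setd1a ends just below it.

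Some of the 10 genes shared the same extreme libraries. After the effect of the kind of file was removed, Asxl2-/- replicate 3 was the highest and wild-type replicate 2 the lowest of the 6 libraries in 5 genes, namely Kmt2a, Kmt2c, Kmt2d, Setd1b and Kdm6b. Over all genes tested, Asxl2-/- replicate 3 was highest in 15.0% and wild-type replicate 2 lowest in 20.5%. Both are gene-count files, and the gap between the extremes was 0.33 to 0.70 on the log2 scale in these genes. The share of all genes with both extremes was not computed. Removal of the kind of file forces wild-type replicate 2 and Asxl2-/- replicate 2 to equal deviations from their group means. A low adjusted value of wild-type replicate 2 therefore cannot be assigned to that library rather than to Asxl2-/- replicate 2. Wild-type replicate 2 is the only wild-type gene-count file, so a fit without it draws genotype from the exon-count files alone. In that fit the log2 fold change of Kmt2d was -0.23, that of Kdm6b -0.15 and that of Setd1b -0.02, while Kmt2a and Kmt2c stood at 0.04 and 0.02. These nearly repeat the values within the exon-count files and do not show that wild-type replicate 2 is deviant. Wdr5 spanned only 0.13 over the 6 libraries and Men1 0.22.

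The fold change of all genes also moved with transcript length, and the 10 genes differ widely in length. The transcripts of Kmt2a, Kmt2c and Kmt2d are 16439, 16820 and 19827 bases long, those of Kmt2b and Setd1b 8484 and 8858 bases, those of Setd1a and Kdm6b 5931 and 6644 bases, and those of Wdr5, Men1 and Ash2l 2903, 2980 and 3302 bases. Among the 99 tested genes of at least 12000 bases the median log2 fold change was 0.20, with 0.29 among gene-count files and 0.12 among exon-count ones. The median was 0.12 in the 444 genes of 8000 to 12000 bases, 0.08 in the 3381 genes of 4000 to 8000 bases and -0.004 in the 5630 genes of 2000 to 4000 bases, and -0.08 in the 4591 shorter genes. Kmt2a and Kmt2c thus lay 0.06 and 0.10 above the median of their length class, and Kmt2d 0.16 below it. Setd1a lay 0.34 and Kmt2b 0.33 below theirs. Whether length accounts for any of these values was not tested, and the values with the length trend removed are given below.

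**Figure D3:**
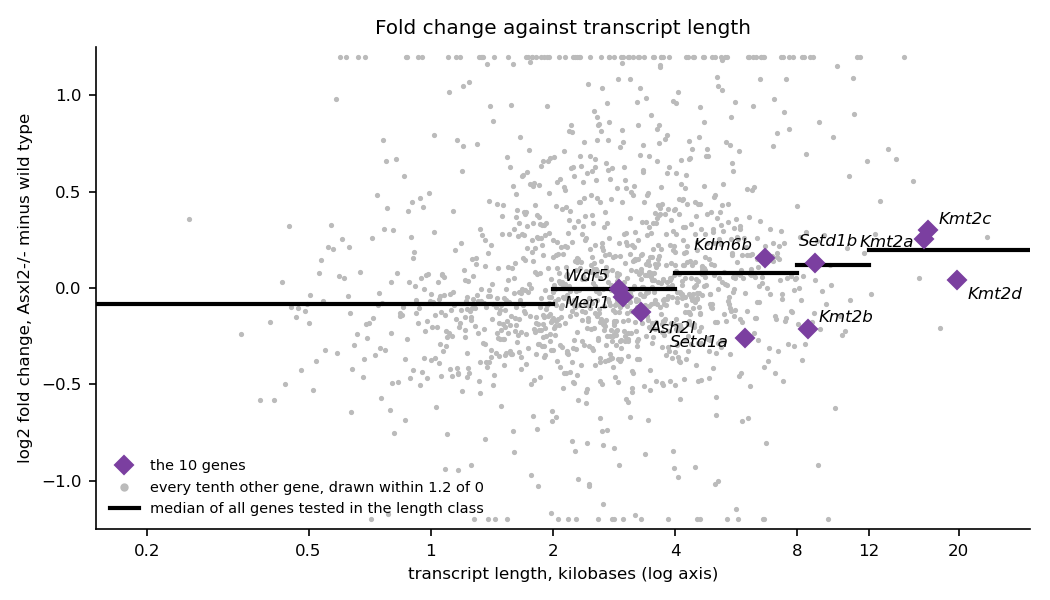
Log2 fold change (y axis, Asxl2-/- minus wild type) against transcript length in kilobases (x axis, log scale). Diamonds are the 10 genes, grey points a sample of other tested genes drawn at the edge where they fall outside it, and black bars the median of all tested genes in each length class. The bars rise from -0.08 in the shortest class to 0.20 in the longest, and Setd1a and Kmt2b lie farthest below the bar of their class.

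When each library's trend with length was removed, the median of all genes shifted by -0.10 on the log2 scale. The log2 fold changes became -0.0388 for Kmt2a, 0.0022 for Kmt2c, -0.28 for Kmt2d, -0.44 for Setd1a and -0.43 for Kmt2b. Relative to the new median, Kmt2a stood at 0.06, Kmt2c at 0.10 and Kmt2d at -0.18, and Setd1a and Kmt2b stood at -0.34 and -0.33. The edgeR adjusted p values of the last pair became 0.0900 and 0.0863. Removal of the trend with GC content left Kmt2a and Kmt2c at 0.28 and 0.34 relative to the median and placed both Setd1a and Kmt2b at -0.34, where edgeR gave adjusted p values of 0.0992 and 0.0892. Neither correction carried any of the 10 genes past the threshold.

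Levels of different genes were compared per length, as CPM per kilobase of transcript. In the gene-count files Wdr5 was the most abundant of the 10, with 58.4 to 62.2 CPM per kilobase, followed by Ash2l with 33.1 to 38.8. Men1 with 23.5 to 27.3 and Setd1a with 20.3 to 24.0 overlapped, as did Kmt2a with 12.8 to 19.2 and Kmt2b with 12.5 to 14.2. Setd1b with 9.26 to 11.6 stood below Kmt2b, and Kmt2d with 8.70 to 12.1, Kmt2c with 6.52 to 10.6 and Kdm6b with 4.37 to 6.69 each overlapped the gene before them in the order. The core genes Wdr5 and Ash2l were therefore above every catalytic subunit, and the cofactor Men1 above every one except Setd1a. The median over all genes tested was 10 CPM per kilobase, and the median level of Wdr5 was above 90.5% of genes tested, that of Kdm6b above 36.9%.

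In the exon-count files the same genes held the ends of the order, with Wdr5 at 66.6 to 72.6 CPM per kilobase and Kdm6b at 5.47 to 6.64. Setd1a and Kmt2b there changed places with Men1 and Kmt2a. Per length, Wdr5 exceeded Kdm6b by 11.1 times in the gene-count files. A long transcript with many exons is counted differently in the kinds of file, so these levels were not compared between them.

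**Figure D4:**
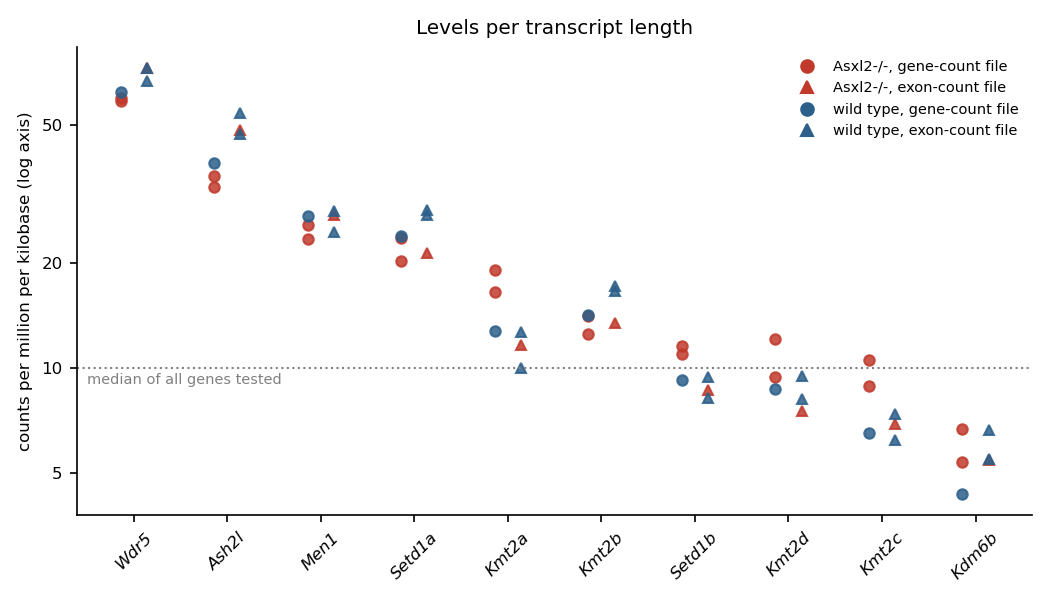
Levels of the 10 genes as CPM per kilobase of transcript (y axis, log scale), ordered by their median in the gene-count files (x axis). Each point is a library, circles and triangles mark gene-count and exon-count files, and the dotted line is the median of all genes tested, 10. Wdr5 stands highest and Kdm6b lowest in both kinds of file. Points are comparable within a shape only. Both Asxl2-/- circles lie on the same side of the single wild-type circle in every gene, above it in some genes and below it in others. The Asxl2-/- triangle lies between the wild-type triangles in Kmt2a, Kmt2c, Setd1b, Men1, Ash2l and Wdr5. The shares of all genes tested with either arrangement were not computed, so neither is a result about these genes.

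The exon-count files show where along each transcript the reads fell, in 1 Asxl2-/- and 2 wild-type libraries, which allows no test between genotypes. The share of a gene's counts in the exons centred 5′ of the transcript's midpoint was alike in the libraries. For Kmt2a it was 40.8% in Asxl2-/- replicate 2 (Wilson 95% interval 39.8% to 41.7% of 10210 counts) and 40.3% in both wild-type libraries. Across the 10 genes the difference of the Asxl2-/- library from the wild-type mean ran from -2.30 percentage points for Men1 to 2.30 for Kmt2c, with a median of 0.55. The wild-type libraries differed from each other by -2.01 to 1.87 points. The intervals cover counting error only.

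Of the 285 exons of the 10 genes, 240 had at least 50 counts in all 3 exon-count libraries, and none differed in share by as much as 1 on the log2 scale from both wild-type libraries. The exon farthest from both was exon 2 of Setd1b, on chromosome 5 from 123142943 to 123143127, picked as the extreme of the 240 and given without a test. It took 1.44% of the Setd1b counts in Asxl2-/- replicate 2 (1.12% to 1.85%, 59 counts) and 2.21% in wild-type replicates 1 (1.81% to 2.69%, 96 counts) and 3 (1.77% to 2.75%, 76 counts), so the intervals touched. No exon of Kmt2a, Kmt2b, Kmt2c, Kmt2d, Men1 or Kdm6b lay farther from both wild-type libraries than the largest difference between these for an exon of the same gene. Besides exon 2 of Setd1b, such exons were exons 4 and 5 of Setd1a and exon 1 of both Ash2l and Wdr5, each with a lower share in Asxl2-/-. In log2 terms, exon 1 of Ash2l differed by -0.33 and -0.31 from wild-type replicates 1 and 3, exon 1 of Wdr5 by -0.24 from both, exon 5 of Setd1a by -0.27 and -0.26, and exon 4 of Setd1a by -0.18 and -0.15.

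The annotated last exon held a smaller share of the counts than of the bases in all 10 genes. The last exon of Ash2l made up 45.7% of the transcript's bases and 11.0% to 12.2% of its counts, and that of Wdr5 61.4% of the bases and 36.4% to 37.5% of the counts. For Kdm6b it was 20% of the bases and 9.96% to 11.9% of the counts, and for Setd1a 13.7% and 8.35% to 8.96%. The shares lay closer in Kmt2a, with 29.3% of the bases and 25.1% to 26.0% of the counts, and in Men1, with 40.5% and 32.7% to 35.2%. A spliced read counts in each exon it touches, which favours short internal exons in these shares. Because the annotated length enters the level per kilobase, the levels per kilobase depend on it, most of all for Ash2l.

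Among 13 other COMPASS subunits, 1 was raised past the threshold, none was lowered, and the median log2 fold change was -0.05. Of all genes tested, 2.34% passed the threshold in either direction. The raised gene was Kdm6a, also called Utx, the X-linked H3K27 demethylase of the KMT2C and KMT2D complexes. Its levels were 110, 105 and 111 CPM in Asxl2-/- replicates 1, 2 and 3 and 63.8, 58.0 and 63.4 CPM in wild-type replicates 1, 2 and 3. All Asxl2-/- values exceeded all wild-type values in both kinds of file. The log2 fold change was 0.83 with an SE of 0.0840 (edgeR adjusted p = 0.0178), 0.93 among gene-count files and 0.73 among exon-count ones. The call was lost without Asxl2-/- replicate 1, wild-type replicate 2 or wild-type replicate 3, at edgeR adjusted p values of 0.0798, 0.0553 and 0.101, with log2 fold changes of 0.73 to 0.93 over all 6 leave-outs.

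Kdm6a is one of the mouse X-linked genes that are known to be expressed from both X chromosomes, and Uty is its Y-linked counterpart. Uty had 0, 2 and 0 counts in the Asxl2-/- libraries and 1702, 1026 and 1800 counts in the wild-type libraries. Summed per length, Kdm6a and Uty came to 20.04 to 21.09 CPM per kilobase in Asxl2-/- and 17.8 to 19.3 in wild type, against 20.04 to 21.09 and 11.0 to 12.1 for Kdm6a alone. The Kdm6a difference therefore stands beside the difference in sex chromosomes, from which genotype cannot be told apart. Kdm6b, the autosomal member of the Kdm6 family, did not pass the threshold.

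**Figure D5:**
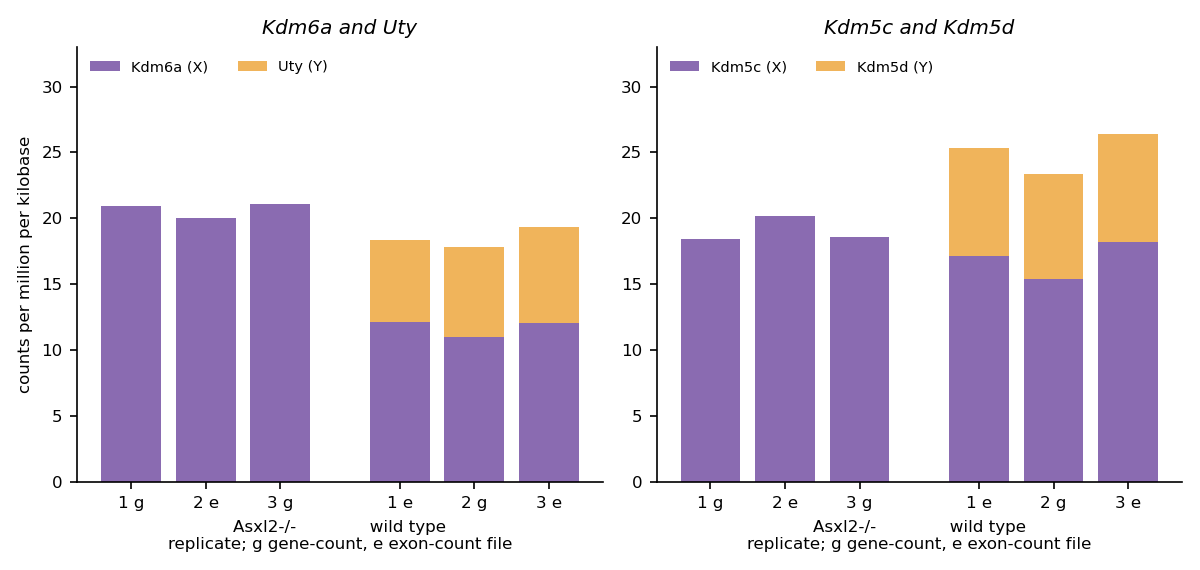
CPM per kilobase (y axis, from 0) of Kdm6a with Uty and of Kdm5c with Kdm5d in each library (x axis, replicate within Asxl2-/- and wild type, with g for gene-count and e for exon-count files). Purple is the X-linked gene and orange the Y-linked one stacked on it; the orange part is near 0 in all Asxl2-/- bars, and the Kdm6a part is taller there, 20.04 to 21.09 against 11.0 to 12.1.

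Of the remaining COMPASS subunits, the lowest p values belonged to Cxxc1, the CpG-binding subunit of the SETD1 complexes, and Pagr1a, a subunit of the KMT2C and KMT2D complexes. Cxxc1 had 101, 134 and 108 CPM in Asxl2-/- and 156, 123 and 179 CPM in wild type. It lay lower in Asxl2-/- within each kind of file, with a log2 fold change of -0.28 (edgeR adjusted p = 0.128, SE 0.0921). DESeq2 with the same terms counted it among its calls. Pagr1a stood at 38.6, 34.6 and 34.3 CPM against 36.7, 47.3 and 39.9 CPM, with a log2 fold change of -0.26 (edgeR adjusted p = 0.176, SE 0.106).

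The enzymes that remove H3K4 methylation gave 0 raised and 1 lowered of 6 tested, beside 2.34% of all genes tested past the threshold. Their median log2 fold change was 0.04. The lowered gene was Kdm5d, which is Y-linked and had 0, 1 and 0 counts in Asxl2-/- and 2347, 1255 and 2126 counts in wild type. Its X-linked counterpart Kdm5c had 203, 222 and 205 CPM in Asxl2-/- and 188, 170 and 201 CPM in wild type, a log2 fold change of 0.23 (edgeR adjusted p = 0.136, SE 0.0787). Kdm5c with Kdm5d summed to 18.4 to 20.1 CPM per kilobase in Asxl2-/- and 23.4 to 26.4 in wild type. For Kdm5b, an autosomal H3K4 demethylase, the log2 fold change was 0.35 (edgeR adjusted p = 0.273, SE 0.191), at 0.73 among gene-count files and -0.01 among exon-count ones.

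Other SET-domain genes gave 0 raised and 0 lowered of 8 tested, both by edgeR and by DESeq2 and limma-voom, with 2 at an unadjusted p under 0.05, near the 27.7% of all genes tested, and a median log2 fold change of 0.09. Smyd1 did not pass the filter on low counts. The 3 lowest p values were those of Ash1l, Prdm9 and Kmt2e. Ash1l, the trithorax-group enzyme that methylates H3K36, had 105, 74.7 and 115 CPM in Asxl2-/- and 70.4, 69.5 and 59.0 CPM in wild type, with a log2 fold change of 0.43 (edgeR adjusted p = 0.123, SE 0.141). For Kmt2e, which binds H3K4me3 but is not known as an active methyltransferase, the log2 fold change was 0.26 (edgeR adjusted p = 0.207, SE 0.117). Prdm9, a meiotic H3K4 methyltransferase, was scarce, with 3.89 to 5.57 CPM in Asxl2-/- and 1.77 to 3.13 CPM in wild type (edgeR adjusted p = 0.155, log2 fold change 0.73, SE 0.273).

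Among 14 fusion partners of KMT2A and elongation factors, 0 passed the threshold in edgeR and in limma-voom. At an unadjusted p under 0.05 there were 5, beside 27.7% of all genes tested, and DESeq2 called 1 raised and 2 lowered, beside 8.69% and 8.44% of all genes it tested, so neither count is a result about this list. The median log2 fold change was -0.04. Mllt6 came nearest, at 73.6, 57.1 and 61.9 CPM in Asxl2-/- and 41.3, 33.7 and 30.6 CPM in wild type, with no overlap between the groups and a log2 fold change of 0.84 (edgeR adjusted p = 0.0592, SE 0.165). Aff4, the scaffold of the super elongation complex, had a log2 fold change of 0.40 (edgeR adjusted p = 0.109, SE 0.119). Dot1l, the H3K79 methyltransferase recruited by MLL fusions, had one of -0.30 (edgeR adjusted p = 0.113, SE 0.0923).

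Known targets of KMT2A and menin gave 1 raised and 0 lowered of 12 tested, beside 2.34% of all genes tested past the threshold. At an unadjusted edgeR p under 0.05, 7 were higher and 0 lower (15% and 12.6% of all genes tested). Their median log2 fold change was 0.57, beside 0.0005 for all genes tested. The raised gene was Hoxa10, with 20.9, 13.2 and 16.6 CPM in Asxl2-/- replicates 1, 2 and 3 and 4.202, 3.647 and 2.70 CPM in wild-type replicates 1, 2 and 3. Its log2 fold change was 2.14 (edgeR adjusted p = 0.0196, SE 0.243), and the call was lost without Asxl2-/- replicate 1 or 3 or wild-type replicate 2 or 3, at adjusted p values of 0.0802, 0.0547, 0.0541 and 0.110 from edgeR. Hoxa7 had a log2 fold change of 1.07 (edgeR adjusted p = 0.0754, SE 0.245). For Meis1, the homeobox partner of HOXA9, it was 1.12 (edgeR adjusted p = 0.0818, SE 0.278). DESeq2 called 5 of the 12 raised and limma-voom 1, against 8.69% and 2.64% of all genes these tools tested. The DESeq2 calls were Hoxa5, Hoxa7, Hoxa9, Hoxa10 and Meis1, and the limma-voom call was Hoxa10. Hoxa5, Hoxa7, Hoxa9 and Hoxa10 lie close together on chromosome 6, between 52201754 and 52234939. They are also among the 7 higher at an unadjusted edgeR p under 0.05, so these counts are not counts of independent genes. The genes called are also high in stem cells, and the marker sums of other cell types moved with genotype as given above. A change within cells and a change in the cells sorted therefore cannot be told apart. Transcript levels of the enzymes do not measure their activity or H3K4 methylation, which these files do not hold.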

How the data were processed

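LSK cells were sorted from bone marrow, RNA was extracted with RNeasy columns, and libraries were poly(A)-selected and unstranded. The authors deposited raw counts of reads on mm10 with RefSeq transcripts, 1 file per sample. The submitters' processing notes name STAR, featureCounts and DESeq2 without versions or roles. The study's own test, Cuffdiff, needs aligned reads and was not used. Each symbol was represented by its longest transcript, then the lowest accession, and exon counts were summed over it. Counts were fitted with edgeR 4.0.16 in R 4.3.3 (glmQLFit, glmQLFTest, TMM, filterByExpr, terms for kind of file and genotype, 3 residual degrees of freedom). P-values were two-sided and adjusted by the Benjamini-Hochberg method over 14145 genes, with a threshold of 0.05. SEs and intervals derive from the F statistic. Means and SDs are of log2 CPM with a prior count of 2, and removal of the kind of file makes these SDs somewhat too small. Values within 1 kind of file rest on 3 libraries and carry no test. P-values measure the spread between these samples, whose origin in separate mice the labels do not state.

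The members, the related lists and the naming rule were chosen with earlier results of these data known. Named were all 10 genes, Asxl2, 5 sex-linked genes, and from each related list the genes past the threshold and the 3 with the lowest p. Hoxa5 and Hoxa9 are named beyond this rule, as DESeq2 calls close to Hoxa7 and Hoxa10. Of the markers of mature lineages, Ly6g was not analysed here. Some listed genes are not reported here. Exon shares have Wilson 95% intervals (scipy 1.17.1, Python 3.11.15) from counts, in exon-count files only. GC content came from GENCODE vM1 transcripts matched by symbol (92.4% of genes tested). The fits were tested on simulated data. Alternatives were DESeq2 1.42.0, limma-voom (limma 3.58.1), other scalings, filters and transcripts, no covariate, a replicate block, GC and length trends, single kinds of file and leaving out each library.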

Additional observations from a re-analysis of the deposited data

How the results depend on the processing

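The count of 0 of the 10 genes past the threshold held in every alternative with a test except those with a replicate block and the kind of file. Labels share replicate numbers, and nothing in the sources says what a number marks. Deviations from the group means of same-numbered libraries correlated across genes at 0.294, -0.008 and -0.003, and Asxl2-/- replicate 2 correlated best with wild-type replicate 3 (0.256). With the kind of file removed the values were 0.635, 1 and 0.388, of which the second is forced and the others raised by that removal. The contrast left free, replicate 1 minus replicate 3 in each group, correlated at 0.337. Whether the numbers pair the samples was not settled. With the replicate block and the kind of file, which leaves 1 residual degree of freedom, 3 of the 10 passed, with 24 related genes and 5179 of all genes (36.6%). In that edgeR fit Kmt2a had a log2 fold change of 0.26 (adjusted p = 0.0311), Kmt2c 0.30 (adjusted p = 0.00938) and Setd1a -0.26 (adjusted p = 0.0225). With the GC trend also removed, 2 of the 10 passed, with 24 related genes and 5172 of all genes (39.6%). The block without the kind of file called 0 of the 10.

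Related genes past the threshold, 4 in the fit as reported, were 12 with DESeq2, 2 with at least 10 counts in every library, 1 among genes outside X and Y, and 2 to 11 with single libraries left out. Over all genes the 331 calls became 2329 with DESeq2, 161 with library size only and 9 (without wild-type replicate 3) to 1312 (without wild-type replicate 1). The median log2 fold change of the 10 moved to 0.11 with library size only, -0.14 and -0.15 with the GC trend removed without and with the block, -0.13 with the length trend removed, 0.11 in the gene-count files, and -0.0428 to 0.11 with single libraries left out. The median of all genes itself shifted by 0.10, -0.09 and -0.10 under library size only, GC and length.

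Signs reversed at these log2 fold changes. Length trend removed: Kmt2a -0.0388, Kmt2d -0.28, Setd1b -0.0868, Kdm6b -0.0284, Kdm5c -0.0234 and Asxl2 -0.11. GC trend removed, without and with the block: Kmt2d -0.15 and -0.16, Setd1b -0.13 and -0.14, Kdm6b -0.0666 and -0.0723. Kmt2d was -0.0054 with DESeq2 and -0.0055 with median-ratio scaling. With library size only Men1 was 0.0526 and Wdr5 0.0922, and Wdr5 was 0.0035 with at least 10 counts. In the exon-count files alone, Kmt2d was -0.22, Setd1b -0.0175, Men1 0.0586, Wdr5 0.0607, Kdm6b -0.14 and Kdm5b -0.0072. With single libraries left out the ranges were -0.23 to 0.31 for Kmt2d, -0.0191 to 0.29 for Setd1b, -0.15 to 0.0595 for Men1, -0.0736 to 0.0635 for Wdr5, -0.15 to 0.47 for Kdm6b and -0.0138 to 0.73 for Kdm5b. In every leave-out fit without wild-type replicate 2 or Asxl2-/- replicate 2, a single kind of file informs the genotype. Such fits nearly repeat the values within the exon-count and gene-count files, respectively. The cause of these changes was not tested. The order of levels per length kept its ratio of 11.1 with the alternative transcript, and the exon shares moved from 0.55 to 0.12 points without first and last exons. That second median includes a difference of 0 for Wdr5 that is fixed in advance, since all its remaining exons are centred 5′ of the midpoint. With 3 libraries per genotype in 2 kinds of file, the intervals of the 10 genes are at least 0.41 wide on the log2 scale.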
